A study of Homo sapiens with 15 samples.

Results

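ATP synthase was followed through 10 genes, 9 of which encode subunits and 1 its inhibitor, ATP5IF1. They were found as the non-control array probes designed against a RefSeq transcript of a named gene, and the 10 genes, with 11 probes, were among 19483 genes matched in this way. The arrays compared PE/CA-PJ41 cells, an established human oral squamous carcinoma line, labelled as stably transfected either with an empty vector (NCE) or with the vector pCMV6-Neo carrying the human cytoglobin cDNA (CYGB+), all kept in supplemented medium for 24 hours before RNA extraction. The study asked how cytoglobin, a haem protein of the globin family, alters these cells. Each group had 3 biological replicates from separate RNA extractions, with 3 arrays per NCE replicate and 2 per CYGB+ replicate. Stable clones had been picked under G418, and the study names 1 cytoglobin clone, LST421, for this comparison, so the effect of cytoglobin and a difference between clones cannot be told apart. The study's text also calls NCE cells untransfected, in which case vector and G418 selection would differ between the groups as well. The p-values below measure the spread between RNA extractions and not between independent clones.

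ATP synthase sits in the inner mitochondrial membrane and uses the proton gradient built by the respiratory chain to make ATP. Protons flow through the membrane part and turn a ring of c subunits with the central stalk (gamma, delta and epsilon), which drives catalysis in the head of alpha and beta subunits. The peripheral stalk (b, d, F6 and OSCP) keeps the head from turning with the rotor, small membrane subunits such as e lie where a pair of enzymes meet, and the inhibitor IF1 stops the enzyme from running backwards and hydrolysing ATP.

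The stalk genes ATP5PF and ATP5PO, which changed most clearly, both lie on chromosome 21, and ATP5ME had the largest positive difference among the members. The bases before their transcription starts are shown here from RefSeq (build GRCh38.p14, all on the minus strand, written 5′ to 3′), with letters matched by a searched motif in capitals. For ATP5PF, a start lies close to that of GABPA, a gene read the other way that encodes a DNA-binding subunit of the ETS-family factor GABP, and only the 30 bases nearest to this start are given.
ATP5PF, chr21:25734905-25734934: gcgtgtggGGGCGGagccagggCCGGAAGt
ATP5PO, chr21:33915805-33916054: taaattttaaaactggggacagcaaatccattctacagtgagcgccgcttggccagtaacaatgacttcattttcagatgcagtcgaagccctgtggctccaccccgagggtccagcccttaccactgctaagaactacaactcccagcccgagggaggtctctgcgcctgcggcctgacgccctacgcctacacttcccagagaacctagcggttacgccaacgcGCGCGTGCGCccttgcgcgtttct
ATP5ME, chr4:674277-674526: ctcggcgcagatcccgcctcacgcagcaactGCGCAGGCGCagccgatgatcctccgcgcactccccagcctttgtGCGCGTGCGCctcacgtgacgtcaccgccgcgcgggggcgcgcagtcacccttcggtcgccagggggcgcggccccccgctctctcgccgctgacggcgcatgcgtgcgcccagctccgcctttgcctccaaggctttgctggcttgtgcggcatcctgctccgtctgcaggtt

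Windows of 250 bases before a start were found for 8 of the 10 member genes, with 2 windows each for ATP5F1A and ATP5PF. They were searched on both strands for the ETS core CCGGAAG, the NRF1 core (GCGCA, any base, then GCGC) and the GC box GGGCGG, which do not overlap one another in the stretches printed. The ETS core stood in windows of 3 member genes (ATP5F1A, ATP5PD and ATP5PF) and in 8.52% of all 35116 windows of the table. The NRF1 core stood in windows of 3 member genes (ATP5F1C, ATP5PO and ATP5ME) and in 5.07% of all windows, and the GC box in those of 6 member genes and in 42.6% of all windows. The member counts are of genes with a match in any of their windows and the shares are of single windows, so their units differ. ATP5PF and ATP5PO shared none of the 3 motifs, and ATP5PO and ATP5ME shared the NRF1 core. Whether the motifs bear on the differences was not tested. A match is only an occurrence of these letters.

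Between 53.8% and 61.3% of the array spots were well above background. The 8 NCE arrays of the first slide and the 6 CYGB+ arrays of the second were joined by a single NCE array on the second slide, so group and slide overlap in 1 array. On 4 arrays the median correlation with the rest of their group was between 0.929 and 0.968, against at least 0.971 on the others. All 8 squamous epithelial marker genes were above background on every array, whereas 1 of 6 fibroblast, 1 of 5 leukocyte and 0 of 4 endothelial marker genes were. The transfected gene did not separate the groups: the CYGB probe gave log2 signals of 11.88, 12.18 and 11.99 in NCE and 11.41, 12.48 and 12.00 in the samples labelled CYGB+ (log2 difference -0.05, SE 0.25, limma adjusted p = 0.907). The probe was well above background on all 15 arrays, NCE included, although the study describes the parent line as not expressing cytoglobin. For clone LST421 the study reports high cytoglobin by qPCR and in-cell ELISA, the transgene found by PCR, and raised haem protein. Why the probe here read alike in both groups, and well above background in NCE, was not tested. Where this probe lies relative to the transfected cDNA is not given in the sources used here, and directions below follow the labels. The labels give Cy3, read in green, for every sample, while the study's methods name Cy5 for control and Cy3 for cytoglobin cells, and red signal of unlabelled origin was present on all 15 arrays. All values here are green and rest on the labels: if the green channel of an NCE array held other RNA, its values would not be those of NCE cells.

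Values are log2 signals after quantile normalization, listed for biological replicates 1, 2 and 3, and differences are CYGB+ minus NCE. They are relative to the rest of each sample's RNA, so a change per cell and a change in share cannot be told apart. Several of these genes have processed copies in the genome, and whether probes read them was not tested. A gene was called where limma's p, adjusted by Benjamini-Hochberg over all 19791 probes tested, was under 0.05. All 10 member genes were tested: ATP5F1B, the catalytic beta subunit, rose, ATP5PF and ATP5PO of the peripheral stalk fell, and 7 genes were not called. Of all probes tested, 12.0% were called (6.10% higher and 5.90% lower in CYGB+). Signals of the groups did not overlap for 5 of the 10 genes, 3 higher and 2 lower, and for 35.0% of all probes. The median difference of the members was 0.08, beside 0.01 over all probes tested.

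**Figure D1:**
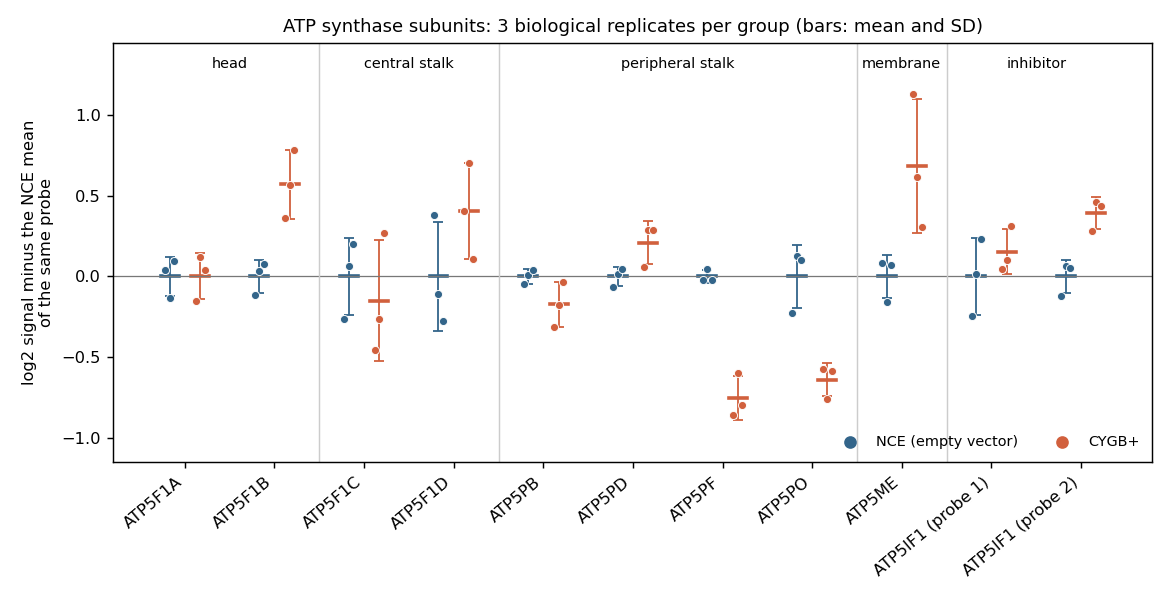
Log2 signal of each member probe in every biological replicate, as the distance from the NCE mean of the same probe, by part of the enzyme. Points are samples (3 per group) and bars the mean and SD. The CYGB+ points of ATP5F1B lie above all NCE points and those of ATP5PF and ATP5PO below all of them.

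The head showed a rise in one of its subunits. ATP5F1B gave log2 signals of 12.81, 12.96 and 13.00 in NCE and 13.28, 13.49 and 13.71 in CYGB+. All CYGB+ values exceeded all NCE values, and the difference was 0.57 (SE 0.13, 95% interval 0.26 to 0.88, 1.49-fold, limma adjusted p = 0.0336). ATP5F1A, which encodes the alpha subunit that alternates with beta in the head, read 11.98, 11.80 and 12.03 in NCE and 11.79, 12.06 and 11.98 in CYGB+. The groups overlapped fully, and the difference of 0.00 (interval -0.27 to 0.28, adjusted p = 0.990) became -0.10 with quantile-normalized processed signals, whereas the other scalings tried left it at or above 0. The log2 ratio of ATP5F1B over ATP5F1A was higher in CYGB+ by 0.57, without overlap between the groups (exact two-sided permutation p = 0.1). This p is the smallest that 3 against 3 allows. Each of the 3 ratios computed set a called gene over an uncalled one, so separation was favoured by that choice and is no separate support.

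Neither gene of the central stalk was called. ATP5F1C (gamma, the shaft of the rotor) read 9.59, 9.92 and 10.06 in NCE and 9.40, 9.60 and 10.13 in CYGB+. The groups overlapped, with a difference of -0.15 (interval -0.63 to 0.33, adjusted p = 0.669) that became 0.13 with the slide as a block. ATP5F1D (delta, at the foot of the shaft) read 11.58, 11.09 and 10.92 in NCE and 11.60, 11.90 and 11.31 in CYGB+. NCE replicate 1 lay above the lowest CYGB+ sample, and the difference was 0.41 (interval -0.08 to 0.89, adjusted p = 0.244). The interval of ATP5F1D holds the difference seen for ATP5F1B, and that of ATP5F1C does not.

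The peripheral stalk split within itself: its 2 genes on chromosome 21 fell and the other 2 were not called. ATP5PF, which encodes coupling factor F6, gave 13.27, 13.33 and 13.27 in NCE and 12.43, 12.69 and 12.49 in CYGB+. The NCE replicates were nearly level and all CYGB+ values were lower, by 1.69-fold (log2 difference -0.75, SE 0.11, interval -1.0 to -0.50, limma adjusted p = 0.00808). ATP5PO, which encodes OSCP, the cap that ties the stalk to the top of the head, gave 13.99, 14.34 and 14.31 in NCE and 13.64, 13.45 and 13.63 in CYGB+. The groups again did not overlap, and the gene was 1.56-fold lower (log2 difference -0.64, SE 0.13, interval -0.94 to -0.34, adjusted p = 0.0233).

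ATP5PB (subunit b, which anchors the stalk in the membrane) read 12.83, 12.88 and 12.92 in NCE and 12.56, 12.70 and 12.84 in CYGB+. The highest CYGB+ sample reached into the NCE range, and the difference was -0.17 (interval -0.43 to 0.08, adjusted p = 0.330), or 0.02 with processed signals scaled to the 75th percentile. ATP5PD (subunit d, in the middle of the stalk) read 13.42, 13.51 and 13.54 in NCE and 13.55, 13.77 and 13.78 in CYGB+. Its groups did not overlap, though the gap was narrow, and the difference of 0.21 (interval -0.04 to 0.46, adjusted p = 0.244) became -0.06 when a spot with an outlier mark was kept. Within the stalk, the log2 ratio of ATP5PF over ATP5PD was lower in CYGB+ by 0.96 and that of ATP5PO over ATP5PB by 0.46. Each was without overlap between the groups (exact two-sided permutation p = 0.1 for both). These ratios too set a called gene over an uncalled one and add no separate support.

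The membrane part was measured through ATP5ME, subunit e, which helps to hold ATP synthase dimers together. It gave 13.17, 12.93 and 13.16 in NCE and 14.21, 13.70 and 13.39 in CYGB+. All CYGB+ values were above all NCE values, but they spread widely, from just above NCE in replicate 3 to far above it in replicate 1. The difference of 0.69 (SE 0.20, interval 0.21 to 1.16) was not called (limma adjusted p = 0.0692). With the replicate number as a block, which would pair samples by extraction, it was called (limma adjusted p = 0.0396). It was likewise called without the 4 arrays of low correlation, where the difference was smaller (0.52, limma adjusted p = 0.0245). Over the 22 alternatives ATP5ME kept its direction and was called in 5. Calls were absent with the slide as a block (difference 0.675, limma adjusted p = 0.396) and with the methods' t-test (t-test adjusted p = 0.201). Without the filter on dim probes it was not called either (limma adjusted p = 0.151).

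The inhibitor was measured with 2 probes that target different transcripts of ATP5IF1. The probe with the higher mean, which stood for the gene, read 13.66, 13.92 and 14.13 in NCE and 13.95, 14.01 and 14.21 in CYGB+. Its groups overlapped, with a difference of 0.15 (interval -0.19 to 0.49, adjusted p = 0.519). The other probe read 12.75, 12.94 and 12.93 in NCE and 13.15, 13.33 and 13.31 in CYGB+. Here the groups did not overlap and the difference was 0.39 (SE 0.11, interval 0.14 to 0.64), which was not called (limma adjusted p = 0.0557). This probe was called in 6 of 22 alternatives, among them the replicate block (limma adjusted p = 0.0477) and leaving out the 4 arrays of low correlation (limma adjusted p = 0.00906). It was not called with the slide as a block (limma adjusted p = 0.115), the methods' t-test (t-test adjusted p = 0.0884) or the deposited table (limma adjusted p = 0.121). The probes thus gave the same direction and different sizes.

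By part of the complex, the median log2 difference was 0.29 for the 2 head genes, 0.13 for the 2 central stalk genes and -0.41 for the 4 peripheral stalk genes, with 1, 0 and 2 genes called. The single membrane gene stood at 0.69 and the inhibitor at 0.15, neither called. In the head and in the peripheral stalk, called and uncalled genes stood side by side. The difference between parts was not tested.

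Of 10 further subunits of the enzyme, 8 were tested and 1 was called (12.5%, near the 12.0% of all probes), with a median difference of 0.10. ATP5MJ, a small membrane subunit first described as a proteolipid, rose from 10.65, 10.29 and 10.44 in NCE to 11.35, 11.21 and 11.00 in CYGB+. That is 1.65-fold without overlap (log2 difference 0.73, SE 0.14, limma adjusted p = 0.0193). The call was lost with the slide as a block, on the slide holding both groups, with the methods' t-test and without NCE replicate 2 or 3. ATP5MG (subunit g, the partner of e at the dimer interface) did not overlap between groups either but was not called (difference 0.28, adjusted p = 0.118). The other membrane subunits gave differences of 0.12 for ATP5MF and 0.09 for ATP5MK. The genes of the proton-carrying c subunit, ATP5MC1, ATP5MC2 and ATP5MC3, gave -0.10, 0.14 and -0.03, and ATP5F1E, the epsilon subunit of the central stalk, -0.24 (adjusted p = 0.541). Without the 4 arrays of low correlation ATP5F1E was called lower. No probe matched MT-ATP6 or MT-ATP8.

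**Figure D2:**
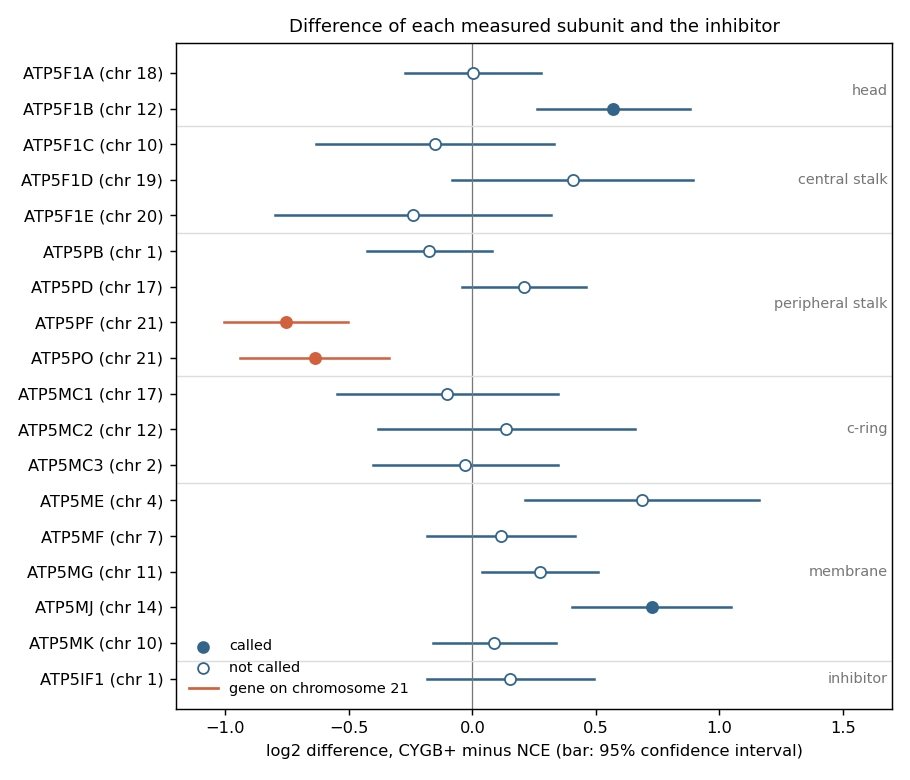
Log2 difference (CYGB+ minus NCE) with its 95% confidence interval for the 17 measured subunits and the inhibitor, by part of the enzyme, with the chromosome of each gene. Filled points are called genes. The intervals of the 2 chromosome 21 genes, ATP5PF and ATP5PO, lie wholly below 0, and those of called ATP5F1B and ATP5MJ and of uncalled ATP5ME and ATP5MG wholly above it.

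Of 6 assembly factors, 4 were tested and 1 was called, beside 12.0% of all probes. ATPAF2, the chaperone of the alpha subunit, rose from 8.78, 8.62 and 8.66 in NCE to 9.10, 9.35 and 9.14 in CYGB+ (log2 difference 0.51, SE 0.11, limma adjusted p = 0.0292). Its call was lost in the same settings as that of ATP5MJ, and also without NCE replicate 1 or CYGB+ replicate 2 or 3 and with normexp signals scaled to the 75th percentile. FMC1, DMAC2L and TMEM242 gave differences of 0.31, 0.27 and 0.11 and were not called. ATPAF1, the chaperone of beta, was above background on 0 of the 15 arrays, and no probe matched TMEM70. The carriers that bring phosphate and exchange ADP for ATP were tested as 4 genes with 0 called: SLC25A3 at 0.10, SLC25A4 at -0.09, SLC25A5 at 0.42 and SLC25A6 at 0.32 (adjusted p from 0.0840 to 0.681). Over all probes limma called 2375, with 5771 at an unadjusted p under 0.05.

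The complexes that feed the proton gradient were counted in the same way. Of 37 complex I genes 4 rose and 1 fell (13.5% called), with a median difference of 0.20. Of 9 complex III genes 1 rose (11.1%, median 0.16), and of 10 tested complex IV genes 3 rose (median 0.17), beside 12.0% of all probes called. Within each complex, the called gene with the largest rise was NDUFV2 in the electron-input module of complex I (0.96, adjusted p = 0.00412), CYC1, the only called gene of complex III and its cytochrome c1 haem protein (0.62, adjusted p = 0.0402), and COX7C, a small subunit of complex IV (1.28, adjusted p = 0.00693). The complex I gene that fell was NDUFV3, another gene of chromosome 21 (-0.70, adjusted p = 0.00927).

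ATP synthase subunits and complexes I, III and IV were then taken as one set of 73 tested genes. Of these, 10 were called higher, 3 were called lower and 60 were not called. Over all probes, 6.10% were called higher and 5.90% lower. The 3 called lower, ATP5PF, ATP5PO and NDUFV3, were the 3 genes of the set on chromosome 21, with differences of -0.75, -0.64 and -0.70. Of the 70 genes elsewhere, 0 fell and 10 rose, with differences from -0.44 to 1.28 and a median of 0.17. This grouping was made after the values were seen and was given no test.

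The rest of chromosome 21 lay in the same direction. Its 158 other tested probes, with those of ATP synthase genes left out, had a median difference of -0.57, the lowest of 23 chromosomes. Of these probes 89.9% lay below 0, 96 were called lower (60.8%) and 3 higher. Taken per sample against the NCE mean, the median of these probes was -0.03, 0.00 and 0.03 in NCE and -0.54, -0.59 and -0.56 in CYGB+, so that every CYGB+ sample was low and the groups were far apart. The values of ATP5PF and ATP5PO lay inside the middle range of their chromosome, whose quartiles were -0.78 and -0.29. With processed signals the chromosome's median was -0.83, and it was below 0 under all 22 alternatives.

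Close neighbours showed the same. Within 1 Mb on either side of ATP5PF, 4 of 4 tested probes lay below 0 and 3 were called lower (median -0.62), in the genes MRPL39, GABPA and APP. GABPA itself, whose start lies 68 bases from that of ATP5PF, read 8.06, 8.45 and 8.40 in NCE and 7.65, 7.42 and 7.76 in CYGB+ (log2 difference -0.69, adjusted p = 0.0253). Within 1 Mb of ATP5PO, 26 of 26 probes from 15 genes lay below 0 and 18 were called lower (median -0.58). DNA copy number was not measured, and its part in these values was not tested.

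Genes of the enzyme on other shifted chromosomes lay on both sides of 0. ATP5MJ rose on chromosome 14, whose median was -0.29, and ATP5F1E, on chromosome 20 with a median of -0.36, was not called, although its difference of -0.24 lay within the quartiles of that chromosome (-0.61 and -0.16). ATP5F1B and ATP5ME lay on chromosomes 12 and 4, whose medians were 0.03 and 0.01, well below the values of these genes. Of the other genes that start within 300 bases of a member on the opposite strand, WDR77 beside ATP5PB was 0.59 higher in CYGB+ (adjusted p = 0.01) and MYL5 beside ATP5ME was 0.64 higher (adjusted p = 0.0118). HAUS1 beside ATP5F1A, KIN beside ATP5F1C and KCTD2 beside ATP5PD gave differences of -0.09, -0.08 and 0.10 and were not called.

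**Figure D3:**
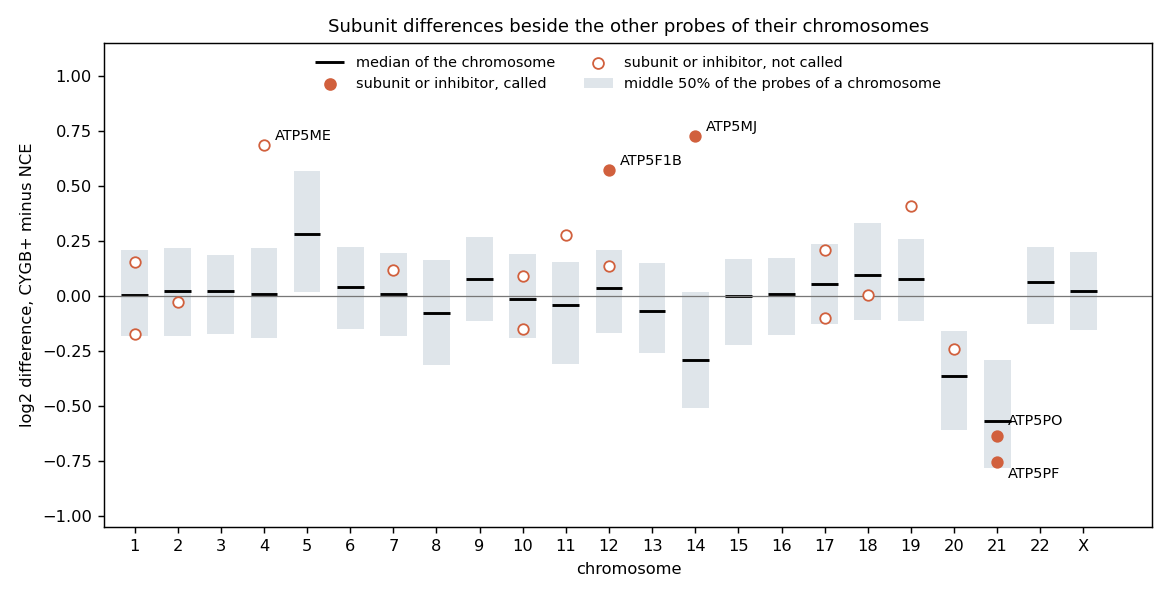
Log2 difference (CYGB+ minus NCE) of the measured subunits and the inhibitor (points, filled where called) on their chromosomes, beside the middle 50% (boxes) and median (lines) of the other tested probes of each chromosome. ATP5PF and ATP5PO sit in the low range of chromosome 21, while ATP5F1B, ATP5ME and ATP5MJ stand above the box of their own chromosome.

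On the slide that held both groups, the lone NCE array lay on the NCE side of all 6 CYGB+ arrays for each of the 4 members with the largest differences. For ATP5PF it read 13.39 against 12.21 to 12.88 in CYGB+, and for ATP5PO 14.03 against 13.45 to 13.78. For ATP5F1B it read 12.96 against 13.14 to 13.80, and for ATP5ME 13.13 against 13.37 to 14.66. These 4 members were picked by the group difference, to which the same arrays contribute, so this is no independent check on the slide. For ATP5F1A, ATP5F1C, ATP5F1D and ATP5PD the lone array lay within the CYGB+ range, and for ATP5PB at its upper edge. For both ATP5IF1 probes it lay below that range. With the slide as a block over 15 arrays, ATP5PF stayed called (difference -0.88, limma adjusted p = 0.0271), while ATP5PO (-0.54, adjusted p = 0.180) and ATP5F1B (0.47, adjusted p = 0.243) kept their direction and lost the call. Within that slide alone, the differences were -0.84, -0.45 and 0.53 with 0 member genes called. Against the same NCE array the chromosome 21 median was -0.56, -0.65 and -0.56 in the CYGB+ samples and between -0.13 and 0.04 on the NCE arrays of the first slide.

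**Figure D4:**
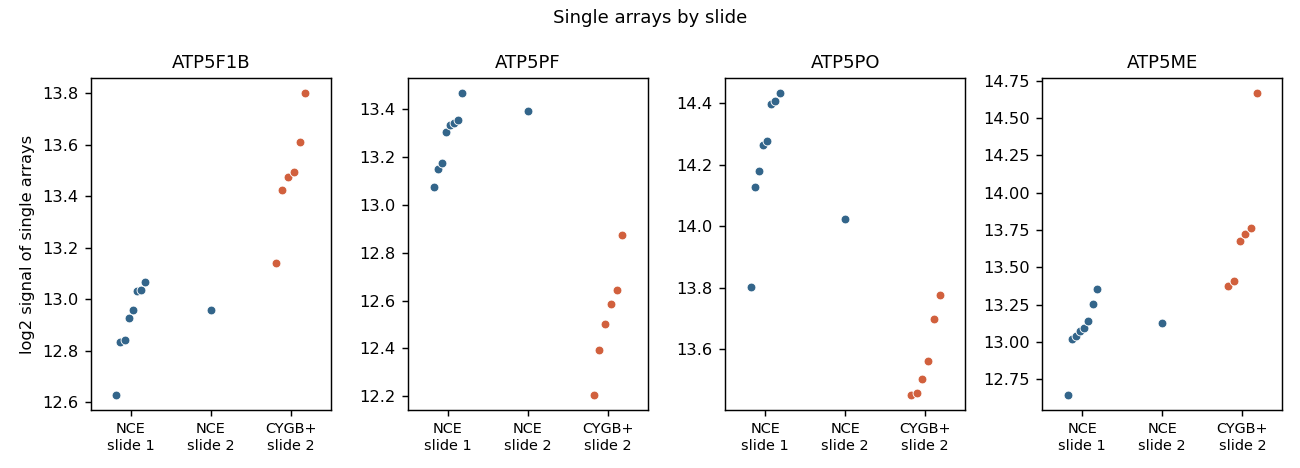
Log2 signal of single arrays for ATP5F1B, ATP5PF, ATP5PO and ATP5ME, with 8 NCE arrays on slide 1, and 1 NCE and 6 CYGB+ arrays on slide 2. In each panel the NCE array of slide 2 lies among or near the NCE arrays of slide 1 and outside the range of the CYGB+ arrays.

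The call for ATP5PF was the firmest of the members: its difference ran from -0.88 to -0.68 over 22 alternatives and it was called in 21. ATP5PO kept its direction in all 22 and was called in 13, and ATP5F1B did so in 22 and 11. Leaving out a replicate left ATP5PF called each time, whereas ATP5F1B lost its call without NCE replicate 1, 2 or 3 or CYGB+ replicate 2 or 3 (highest adjusted p = 0.115). ATP5PO lost its call without NCE replicate 2 or 3 or CYGB+ replicate 2 or 3 (highest adjusted p = 0.102).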

How the data were processed

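The deposited files were the scanner output of 15 Agilent arrays (Feature Extraction 10.7.3.1, design grid on hg19), in which the authors give each spot's green intensity. A deposited table of normalized values, which set against the scanner signals is on a natural log scale (ln) and centred per probe, served as an alternative, and the direction and scale of its columns follow from that comparison. The extraction protocol has 2 channels, but the labels describe green (Cy3) only. Red held signal of RNA the labels do not describe and was not used. The processed green signal, which may be dye-normalized against red, was kept as an alternative. Median green intensity and local background entered normexp (offset 50), since no mean signal column was at hand, then quantile normalization and log2. Repeat spots and then arrays were averaged per biological replicate, leaving out spots with outlier marks where another array of the replicate had a clean one. Probes well above background on every array of at least 1 group (19791 of 42405) were fitted without a block in limma 3.58.1 (R 4.3.3) and adjusted by Benjamini-Hochberg at 0.05. The script was tested on simulated data.

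Probes were named through RefSeq accessions. The probe with the highest mean signal stood for its gene. Every member probe, CYGB, and the other subunits, assembly factors and carriers were named, and for complexes I, III and IV the called genes with the largest rise and fall. GABPA, the other genes near members and the chromosome medians were chosen after the values were seen. The 3 ratios of members were not in the plan. The members and lists were chosen with earlier results of these data known. Deviations from group means correlated positively between same-numbered replicates, at 0.219, 0.23 and 0.313 for replicates 1, 2 and 3. Between different numbers the correlations ran from -0.514 to 0.304, a range that holds the values of replicates 1 and 2. The labels describe RNA extraction on separate occasions, so the numbers may pair the samples, which these correlations do not settle. The main fit holds no replicate block, and the block was run as an alternative. Alternatives covered scaling, filters, outlier marks, slide and replicate blocks, each replicate left out, the methods' t-test and the deposited table. After the data were seen, leaving out arrays of low correlation and omitting background subtraction were added. The number of arrays limits the precision.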

Additional observations from a re-analysis of the deposited data

Results flagged for a closer look

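Among 22 sets of arrays (each member probe in each group), 3 held a lone array far from the rest, and chance gives about 1 in 20 sets. For ATP5ME, 1 NCE array of replicate 2 read 12.65 against 13.02 to 13.36 on the others, and 1 CYGB+ array of replicate 1 read 14.66 against 13.37 to 13.76. For the second ATP5IF1 probe, the same CYGB+ array read 12.86 against 13.24 to 13.44. That CYGB+ array had the lowest correlation with its group (0.929), and without it both probes were called, at limma adjusted p = 0.0219 for ATP5ME and 0.0104 for ATP5IF1. Without it the difference was 0.535 for ATP5ME and 0.49 for this ATP5IF1 probe, beside 0.69 and 0.39 with all arrays.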

How the results depend on the processing

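ATP5F1B, ATP5F1D, ATP5PF, ATP5PO, ATP5ME and the second ATP5IF1 probe kept their direction under all 22 alternatives. The count of 3 called members became 1 with the slide as a block, with the methods' t-test and with the deposited table, 0 on the slide holding both groups, and 1 to 3 on leaving out each replicate. It was 2 with processed signals at the 75th percentile, where ATP5PO lost its call. It was also 2 with quantile-normalized processed signals and without the filter on dim probes, where ATP5F1B lost its call. The count of members was 4 with the replicate block and with 15 arrays and the sample as a random block. It was likewise 4 without the 4 arrays of low correlation and without the lowest of them. Each of these settings added ATP5ME and changed no other member gene's call. With the replicate block 3114 probes were called. The 2375 probes called became 4683 with 15 arrays and the sample as a random block, 713 with the slide as a block, 5 on the slide holding both groups, 804 with the t-test, 1444 with the deposited table, 4631 without the 4 arrays of low correlation, 4087 without the lowest of them, and 465 to 2401 on leaving out each replicate. The 2 called among the other subunits, assembly factors and carriers became 1 with normexp signals scaled to the 75th percentile, 0 with the slide block, on that slide or with the t-test, and 0 to 2 without each replicate.

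Signs turned only in uncalled genes. ATP5F1A gave -0.10 with quantile-normalized processed signals, -0.13 with the slide block and on that slide, and -0.0649 to 0.081 without each replicate. ATP5F1C gave 0.13 with the slide block, 0.21 on that slide and -0.359 to 0.00299 without each replicate. ATP5PB gave 0.0221 with processed signals at the 75th percentile. ATP5PD gave -0.0554 with marked spots kept and -0.0688 with the deposited table, and the first ATP5IF1 probe -0.13 with marked spots kept. CYGB gave 0.0912 with processed signals at the 75th percentile, 0.0467 with the deposited table and -0.31 to 0.22 without each replicate. The causes were not tested, except that the slide alone holds fewer arrays and the NCE group then rests on 1 array, assumed to vary like CYGB+.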
